A study of Mus musculus with 2 samples.

Results

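Fragments protected by ribosomes were sequenced in mouse spinal cord of 2 groups, GarsC201R/+ and wild type (WT). Gars encodes glycyl-tRNA synthetase, which attaches glycine to its tRNAs, and the GarsC201R/+ animals were heterozygous for the C201R missense allele, while the WT animals carried no mutant Gars allele per the labels. Each group was 1 library made from the pooled cord lysates of 3 animals, and the labels used here give no age, strain or sex. The series asked how ribosomes are spread over glycine codons in mutant cord. The values described here are those of 5 amino acid transporter genes, Slc7a5, Slc3a2, Slc7a11, Slc7a1 and Slc38a2, chosen by their Ensembl identifiers out of the 12530 genes listed in both libraries. All 5 were listed with reads in both libraries, and all 5 had the minimum of 100 reads over both libraries that a comparison was given.

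Cells take up amino acids through membrane carriers of several families. Slc7a5 (LAT1) exchanges large neutral amino acids, among them leucine, and is abundant in the endothelium of the blood-brain barrier. Slc7a11 (xCT) brings in cystine, a precursor of glutathione, in exchange for glutamate. Both are light chains that reach the plasma membrane bound to the heavy chain Slc3a2 (4F2hc, CD98). Slc7a1 (CAT1) carries arginine and lysine and needs no heavy chain, and Slc38a2 (SNAT2) imports small neutral amino acids, glycine included, together with sodium. In cultured mammalian cells these genes are known targets of ATF4, the transcription factor of the integrated stress response. That response is set off by kinases such as GCN2, which responds to uncharged tRNA and to stalled ribosomes.

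The sites that ATF4 binds together with C/EBP proteins share the core TGATGNAAN, which reads NTTNCATCA on the other strand. Promoter windows from 250 bases before to 50 bases after a start site were taken from RefSeq, build GRCm38.p6, and searched on both strands. Of the 5 genes, 4 matched the table, with 5 windows between them because Slc7a1 had a pair of start sites, and Slc7a5 was not listed. The core stood in 1 of the 5 windows, that of Slc7a11, which held 2 copies, and in 3.95% of all 32851 windows of the same length. The first copy lay 66 to 58 bases before the Slc7a11 start on the gene's strand, and the second lay 48 to 40 bases before it on the opposite strand. These positions refer to the start site of the window, which lies 55474 bases inside the span that RefSeq gives for Slc7a11, so the table's window is not at the outermost start of that gene. The same holds for Slc3a2, with a window start 9472 bases inside its span, while the Slc38a2 window and 1 of the Slc7a1 windows are at the end of the span. The exact form TGATGCAAT, which is a case of the core, was in 0 of the 5 windows and in 0.192% of all windows. The 250 bases before the start are printed for Slc7a11 and Slc38a2, which had the highest and the lowest ratio between the libraries among the genes with a window. They run 5′ to 3′ on the minus strand, from chr3:50443614-50443863 for Slc7a11 and from chr15:96699729-96699978 for Slc38a2, and capitals mark the core.
Slc7a11: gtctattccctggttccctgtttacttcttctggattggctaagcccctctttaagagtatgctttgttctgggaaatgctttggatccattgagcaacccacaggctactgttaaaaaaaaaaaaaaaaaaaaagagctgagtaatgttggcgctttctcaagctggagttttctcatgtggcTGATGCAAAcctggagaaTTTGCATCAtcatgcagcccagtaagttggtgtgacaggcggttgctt
Slc38a2: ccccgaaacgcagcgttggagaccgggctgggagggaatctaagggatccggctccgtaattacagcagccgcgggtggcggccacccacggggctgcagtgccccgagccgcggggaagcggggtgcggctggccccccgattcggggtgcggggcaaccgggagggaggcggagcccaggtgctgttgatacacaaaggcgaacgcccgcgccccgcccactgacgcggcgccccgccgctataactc
The G and C share of these bases was 43.2% for Slc7a11 and 72.0% for Slc38a2. A match to these letters describes the sequence and does not show that a factor binds there, and a window without a match does not show the reverse.

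The GarsC201R/+ library held 3491159 gene reads and the WT library held 7770935, so single genes rest on fewer reads in the mutant library. A median gene had 96 reads in the GarsC201R/+ library and 206 reads in the WT library. Levels below are the deposited RPKM values (reads per unit of gene length and of library depth), and ratios are log2 ratios of reads after TMM scaling, which sets the bulk of the genes equal. The 95% intervals cover counting error only. With 1 pooled library per group there was no replicate check, no p-value was computed, and the intervals compare these libraries, not the genotypes. A gene was called higher or lower when it differed by at least 1.5-fold and its interval excluded equal levels. By that rule 8.14% of the 9726 tested genes were higher and 11.2% were lower in the GarsC201R/+ library. The ERCC spike-ins made up 0.650% of the listed reads in the GarsC201R/+ library and 0.00669% in the WT library, so every ratio given here is relative to the other genes and not to an added standard. There was no RNA library, and less RNA per cell cannot be told apart from fewer cells of a type or from fewer ribosomes per mRNA. The identifiers of other genes had no symbol in the tables used here, so markers of spinal cord cell types could not be checked.

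Slc7a5 (ENSMUSG00000040010), the exchanger of large neutral amino acids, lay furthest above equal levels among the 5 genes. It gave 417 reads in the GarsC201R/+ library, with a 95% Poisson interval of 378 to 459, and 546 reads (501 to 594) in the WT library. Per length and depth its level was 33.7 RPKM (30.5 to 37.1) in the GarsC201R/+ library and 19.9 RPKM (18.3 to 21.7) in the WT library, and these intervals do not overlap. The log2 ratio was 0.71 (0.52 to 0.90), or 1.64-fold higher in the GarsC201R/+ library, and Slc7a5 was called higher. The lower end of that interval, 1.44-fold, lies under the 1.5-fold limit. Of all 9726 tested genes, 5.31% had a ratio at least as high. Among the 973 genes with 819 to 1213 reads over both libraries, the median log2 ratio was -0.057 with a robust SD of 0.36, and 2.06% of them had a ratio at least as high. In that group 4.11% of the genes were called higher.

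Slc3a2 (ENSMUSG00000010095), the heavy chain that Slc7a5 and Slc7a11 share, was close to equal. It was counted with 1053 reads (990 to 1120) in the GarsC201R/+ library and 2372 reads (2280 to 2470) in the WT library. Its level was 106 RPKM (100.0 to 113) in the GarsC201R/+ library and 108 RPKM (104 to 113) in the WT library. The log2 ratio was -0.071 (-0.18 to 0.034), an interval that holds equal levels and runs from 0.885-fold to 1.02-fold. This was the most precisely counted of the 5 genes. Of the tested genes, 53.1% had a ratio at least as high, so Slc3a2 lay in the middle of the genes.

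Slc7a11, the cystine carrier, was the weakest of the 5 genes in both libraries. Slc7a11 (ENSMUSG00000027737) had 49 reads (36.3 to 64.8) in the GarsC201R/+ library and 69 reads (53.7 to 87.3) in the WT library. Its level was 1.51 RPKM (1.12 to 2.00) in the GarsC201R/+ library and 0.960 RPKM (0.747 to 1.22) in the WT library, and these intervals overlap. The log2 ratio was 0.60 (0.048 to 1.16), or 1.52-fold higher in the GarsC201R/+ library, which passed the calling rule by a narrow margin and failed it with a 99% interval. Genes with so few reads varied widely. Among the 973 genes with 100 to 145 reads the robust SD of the log2 ratio was 0.68, 18.4% were called higher and 18.0% had a ratio at least as high as that of Slc7a11. The gene is 9223 nt long as counted here, and 118 reads over that length gave a low RPKM: 11.1% of the listed genes lay lower in the GarsC201R/+ library and 7.18% in the WT library. Among the 202 tested genes with a mean RPKM from 1 to below 2, the median log2 ratio was -0.18, 8.42% were called higher and 7.92% had a ratio at least as high. Tested genes needed 100 reads, which at so low an RPKM only long genes reach. Shorter genes of like RPKM are therefore missing from these 202.

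Slc7a1 (ENSMUSG00000041313), the carrier of arginine and lysine, had 274 reads (243 to 308) in the GarsC201R/+ library and 507 reads (464 to 553) in the WT library. Its level was 10.8 RPKM (9.60 to 12.2) in the GarsC201R/+ library and 9.07 RPKM (8.29 to 9.89) in the WT library, with overlapping intervals. The log2 ratio was 0.21 (-0.0045 to 0.43), an interval that just reaches equal levels. Scaling to total gene reads in place of TMM moved it to 0.27 (0.049 to 0.48), which excludes equal levels, so the reading of this gene turned on the scaling. Under both it stayed short of 1.5-fold. Of the 972 genes with 602 to 819 reads, 25.0% had a ratio at least as high.

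Slc38a2, the sodium-coupled importer of small neutral amino acids, lay on the other side of equal levels. Slc38a2 (ENSMUSG00000022462) had 474 reads (432 to 519) in the GarsC201R/+ library and 1434 reads (1360 to 1510) in the WT library. Its level was 28.9 RPKM (26.4 to 31.6) in the GarsC201R/+ library and 39.5 RPKM (37.5 to 41.6) in the WT library, and these intervals do not overlap. The log2 ratio was -0.50 (-0.65 to -0.35), or 1.41-fold lower in the GarsC201R/+ library, which is short of the 1.5-fold limit, so the gene was not called. Of all tested genes, 15.1% had a ratio at least as low. Among the 972 genes with 1213 to 2151 reads the robust SD was 0.34, and 9.57% had a ratio at least as low.

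**Figure D1:**
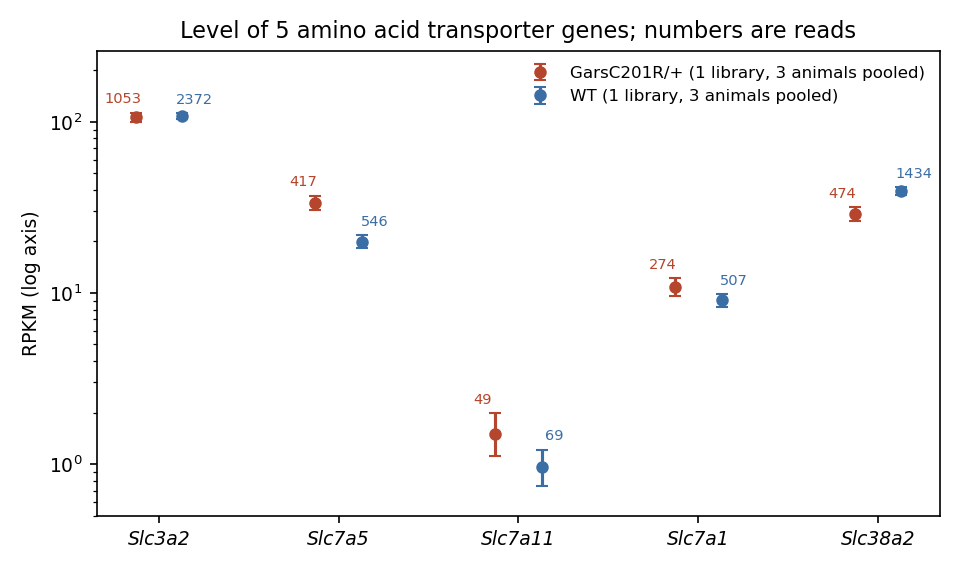
Level of each transporter gene in RPKM on a log axis, with the GarsC201R/+ library (red) left of the WT library (blue). Points are single libraries, bars are 95% Poisson intervals of the reads, and the numbers are reads; the intervals are apart for Slc7a5 and Slc38a2, in opposite directions, and overlap for the other 3 genes.

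Of the 5 genes, then, 2 were called higher (Slc7a5 and Slc7a11), 0 were called lower and 3 were not called, against 8.14% and 11.2% of all tested genes. By the interval alone, with no fold limit, 2 were higher (Slc7a5 and Slc7a11) and 1 was lower (Slc38a2), against 23.7% and 28.2% of all tested genes. An interval that leaves out equal levels is thus common among all genes, 51.9% of which had one. The median log2 ratio of the 5 was 0.21, against -0.034 for all tested genes, and 3 lay above and 2 below equal levels. The 5 genes together took 0.0649% of the gene reads in the GarsC201R/+ library and 0.0634% in the WT library. Slc3a2 alone gave 46.4% of these reads in the GarsC201R/+ library and 48.1% in the WT library.

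**Figure D2:**
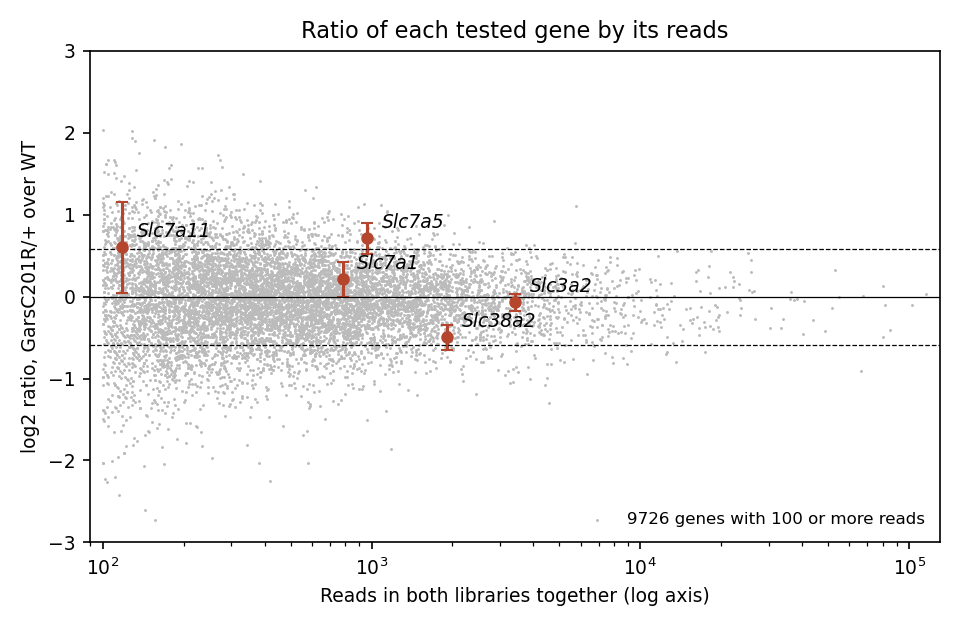
Log2 ratio of the GarsC201R/+ over the WT library (vertical axis) against the reads in both libraries together (log axis) for the 9726 tested genes (grey) and the 5 transporter genes (red, with 95% counting intervals). Dashed lines mark 1.5-fold, 9 genes lie outside the axis limits of 3 and -3, and the grey cloud narrows with reads, so that Slc7a5 sits at its upper rim and Slc7a11 well inside it.

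**Figure D3:**
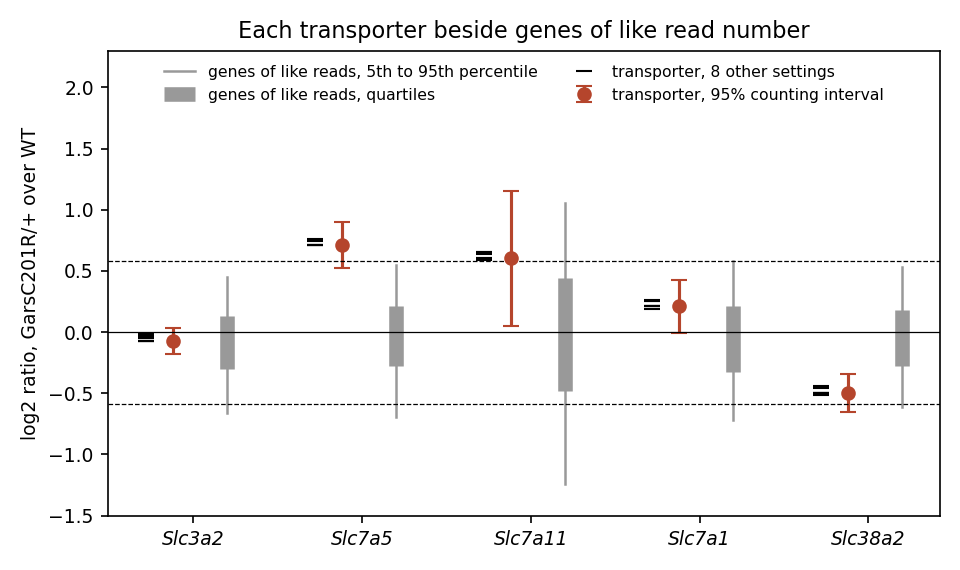
Log2 ratio of each transporter gene (red point, 95% counting interval), the same ratio under 8 other settings (black dashes) and the ratios of genes of like read number (grey, quartiles and 5th to 95th percentile). Slc7a5 at 0.71 lies above the 95th percentile of its group, 0.55, while Slc7a11 at 0.60 lies below that of its group, 1.05, and Slc38a2 at -0.50 lies above the 5th percentile of its group, -0.61.

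The order of the 5 levels per length differed between the libraries in 1 place. In the GarsC201R/+ library the order was Slc3a2, Slc7a5, Slc38a2, Slc7a1 and Slc7a11, and in the WT library Slc38a2 stood above Slc7a5. In reads, not divided by length, Slc38a2 stood above Slc7a5 in both libraries (474 and 417 in GarsC201R/+, 1434 and 546 in WT). The change of place thus rests on the lengths used, 4660 nt for Slc38a2 and 3517 nt for Slc7a5. How much of each length is translated was not known here. Slc7a5 was at 1.17 times the RPKM of Slc38a2 (counting interval 1.02 to 1.33) in the GarsC201R/+ library, so these neighbours were close there. In the WT library Slc38a2 was at 1.98 times the RPKM of Slc7a5 (1.79 to 2.19). The other neighbours in both orders were at least 2.20-fold apart, the least of them being Slc7a5 over Slc7a1 in the WT library (1.94 to 2.49). From the highest to the lowest of the 5 genes the levels spanned 70.5-fold in the GarsC201R/+ library and 113-fold in the WT library. Part of these spans comes from the lengths, 2813 nt for Slc3a2 and 9223 nt for Slc7a11. In reads the ends were 1053 and 49 in the GarsC201R/+ library, and 2372 and 69 in the WT library.

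The heavy chain exceeded its light chains in both libraries, by less in the mutant one. The RPKM of Slc3a2 was 3.16 times that of Slc7a5 in the GarsC201R/+ library and 5.43 times in the WT library. With the RPKM of Slc7a11 added to that of Slc7a5, it was 3.02 times their sum in the GarsC201R/+ library and 5.18 times in the WT library. Slc3a2 also binds other light chains, which are not in these sums. The sizes of these ratios also rest on the lengths used, 2813 nt for Slc3a2, 3517 nt for Slc7a5 and 9223 nt for Slc7a11. Reads of protected fragments are not amounts of protein, so these ratios do not give the makeup of the complexes.

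Ratios between the genes within a library do not depend on how the libraries are scaled. For each of the 10 pairs the read ratio in the GarsC201R/+ library was divided by the same ratio in the WT library, with an exact conditional interval. The interval excluded 1 for 8 of the 10 pairs, which share genes and are not independent. With the normal approximation of the interval (Woolf), used because all pairs had to be counted, it excluded 1 for the same number, 8 of the 10, against 50.2% of all 47292675 pairs of tested genes. For 5 of the 10 pairs the quotient was also at least 1.5-fold, against 35.5% of all pairs by the same rule and 36.5% with no interval asked. These shares were not matched for reads, and an interval excludes 1 more readily where reads are many. All of the transporter genes but Slc7a11 had more reads than the median gene in both libraries (96 in GarsC201R/+, 206 in WT). The pair furthest apart was Slc7a5 and Slc38a2, at 2.31 (1.95 to 2.73), and 7.64% of all pairs of tested genes were at least as far apart. This pair was picked as the furthest of 10, and the share makes no allowance for that choice. Slc7a5 against its heavy chain Slc3a2 gave 1.72 (1.48 to 2.00), a distance that 23.2% of all pairs reached. Slc7a11 against Slc38a2 gave 2.15 (1.44 to 3.19), which 10.2% of all pairs reached. Against Slc3a2, Slc7a11 gave 1.60 (1.08 to 2.36), which 29.7% of all pairs reached. The light chains Slc7a5 and Slc7a11 did not differ detectably from each other, at 1.08 (0.718 to 1.62), an interval too wide to show that they were alike. The other pair whose interval held 1 was Slc7a11 and Slc7a1, at 1.31 (0.865 to 1.98).

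**Figure D4:**
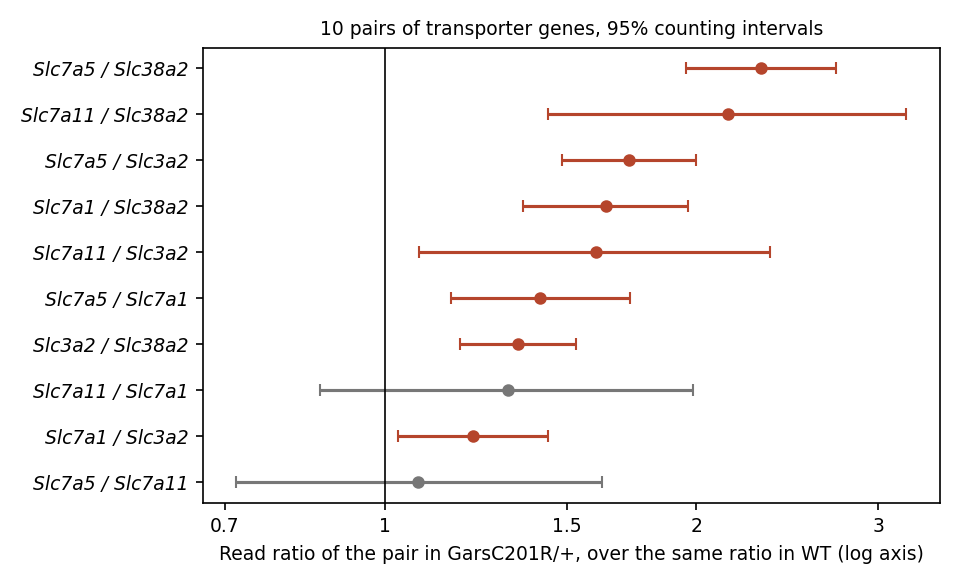
For each of the 10 pairs, the ratio of reads of the first gene over the second in the GarsC201R/+ library, divided by the same ratio in the WT library (log axis). Bars are 95% exact counting intervals, and the pairs in grey, Slc7a11 over Slc7a1 and Slc7a5 over Slc7a11, hold 1, while Slc7a5 over Slc38a2 stands furthest out at 2.31.

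In the mouse genome (RefSeq, GRCm38.p6), Slc7a5 spans chr8:121881146-121907686, Slc3a2 chr19:8706882-8723369 and Slc7a11 chr3:50364936-50499087. Slc7a1 spans chr5:148327410-148399904 and Slc38a2 chr15:96687392-96699728. In the RefSeq table, 0 other genes overlapped any of these 5 spans. The part of a gene that was counted is not stated and may differ from these spans. Whether reads of an overlapping or antisense gene entered these values was therefore not fully checked. Reads shared with similar sequences elsewhere could not be checked from totals. The lengths behind the RPKM values were 3517 nt for Slc7a5, 2813 nt for Slc3a2, 7179 nt for Slc7a1 and 4660 nt for Slc38a2.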

How the data were processed

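Per the labels' protocols, cord lysates of 3 animals per genotype were pooled and fragments made with RNase I were size-selected. Per the submitters' processing notes, Bowtie 1.2.2 and HTSeq 0.9.1 were used with build GRCm38. Their settings, the use of strand and the counted part of a gene are not stated in those notes or in the labels. Per the file headers, the authors deposited read counts and RPKM values per gene. RPKM values deposited by the authors divided the reads by whole-number lengths and by library totals of 3520348 (GarsC201R/+) and 7790126 (WT), which were recovered from the values. Counts of the 12530 genes, without the 18 ERCC rows, were scaled with TMM (edgeR 4.0.16, R 4.3.3). Log2 ratios used a prior count of 0.5 per library, with exact binomial intervals, and tested genes had 100 or more reads over both libraries. Fit and plots used Python 3.11.15, scipy 1.17.1 and matplotlib 3.10.9, with DESeq2 1.42.0 for 1 alternative scaling. The genes named were the 5 transporters, and these and the lists were chosen with earlier results of these data known. Of the identifiers, 0 could be paired with a symbol through the RefSeq table (49997 genes), so the planned lists of other transporters, amino acid sensing, glutathione, stress response and cell type genes, and Gars itself, were not analysed here. The 5 symbols came with the identifiers in the choice of genes. No protein sequence was used here.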

Additional observations from a re-analysis of the deposited data

Results flagged for a closer look

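Rows of ERCC spike-ins, which no comparison above rests on, were as a group 94.3-fold higher in the GarsC201R/+ than in the WT library relative to the TMM-scaled gene reads. The labels do not say when or whether they were added, and their bearing on the transporter ratios was not tested. The ratios of 1 transporter gene to another do not depend on them.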

How the results depend on the processing

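With 8 other choices of scaling, prior count and depth, the log2 ratio lay between 0.71 and 0.76 for Slc7a5, between 0.59 and 0.66 for Slc7a11, between 0.19 and 0.27 for Slc7a1, between -0.073 and -0.017 for Slc3a2 and between -0.51 and -0.44 for Slc38a2. All of these stayed inside the counting intervals. With a 99% interval 1 of the 5 genes (Slc7a5) was called higher, against 737 of the 9726 tested genes. With a 2-fold limit 0 of the 5 were, against 166 of 9726. With the WT library thinned to the depth of the other, and with a minimum of 500 reads, Slc7a11 fell under the minimum. Of the 4 genes left, 1 (Slc7a5) was called higher under each. Over all genes, 659 of 8440 were higher with thinning and 158 of 4480 with the minimum of 500 reads. The thinned log2 ratio of Slc7a11 was 0.65 (-0.030 to 1.36). With no fold limit 1 gene (Slc38a2) was called lower. Over all genes, a minimum of 20 reads gave 1321 genes higher, no minimum gave 1379 higher, 158 were higher and 348 lower with a minimum of 500 reads, a 2-fold limit gave 166 higher and 267 lower, and no fold limit gave 2309 higher and 2741 lower, against 792 and 1087. Scaling to the spike-in reads, chosen after seeing the data, shifts every gene by 1 common factor. It gave 0 genes higher and 9726 lower, all 5 transporters among them, and turned Slc7a5 to -5.84 and Slc7a11 to -5.92, with Slc7a1 at -6.34, Slc3a2 at -6.63 and Slc38a2 at -7.05. Slc7a11, with 118 reads, is the gene that depth limits most. Alternatives for the gene lists were left out, since the lists could not be matched. No replicate could be left out, and no paired analysis was possible because there was 1 library per group.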
